A study of Arabidopsis thaliana with 2 samples.

Results

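The xyloglucan endotransglucosylase/hydrolase (XTH) family of Arabidopsis thaliana, XTH1 to XTH33, was followed through 2 transcriptomes of developing seeds. Its 33 members were taken by gene identifier from the 33602 gene models of the deposited tables, and all 33 were listed. One library came from seeds of plants carrying OLEOp:GmPSKγ1, a construct for the soybean phytosulfokine precursor gene GmPSKγ1 (phytosulfokine is a sulfated peptide hormone). The other came from seeds carrying OLEOp:GmPSKγ1tc, named as the control in the series' design text, which does not say what tc stands for or how this construct differs. Both constructs carry the same promoter label, and the parental strain is not given in the sources used here. Seeds of both genotypes were harvested at 10 DAP, and for each genotype RNA from 3 individual lines went into 1 pool. Each genotype is therefore 1 library, the spread between lines cannot be recovered, and no test between the genotypes can be made.

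Xyloglucan is the main hemicellulose of the growing wall in most land plants except grasses, where it coats and tethers cellulose microfibrils. XTH enzymes cut a xyloglucan chain and join the new end to another xyloglucan chain (endotransglucosylase activity) or to water (hydrolase activity), so that walls can be loosened, strengthened or remodelled as cells expand. Plants keep many XTH genes, and single members answer to touch, brassinosteroid, auxin, shade or salt, or are restricted to roots, root hairs, xylem or flowers. By sequence, XTH1 to XTH11 are placed in group I, XTH12 to XTH26 in group II and XTH27 to XTH33 in group III; XTH31 and XTH32 form group IIIA, which holds the hydrolases, and XTH27 to XTH30 belong to group IIIB.

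The catalytic site of these enzymes is built from 3 acidic residues, each 2 positions from the next: the nucleophile, a helper and the acid/base. The stretch of 30 bases that encodes it is shown for members on which the results below turn, read from the RefSeq genome and annotation (assembly TAIR10.1) on the coding strand, 5′ to 3′, with the codons at the 3 catalytic positions in capitals.
XTH22 (chr5:23307839-23307868, minus strand): tgggacGAGataGATttcGAGtttttaggg
XTH24 (chr4:14820042-14820071, minus strand): tgggatGAGattGATtttGAGttcttgggt
XTH16 (chr3:8550595-8550624, plus strand): cacgacGAGataGACtttGAGtttcttggt
XTH9 (chr4:1416535-1416564, plus strand): cacaacGAAttcGATtttGAGttcttaggg
XTH32 (chr2:15474073-15474102, minus strand): catgatGAGgtaGACataGAAtttttgggg
XTH33 (chr1:3480306-3480335, minus strand): cacgacGAGataGACataGAAttgttgggt
XTH11 (chr3:18007737-18007766, plus strand): catgatGAGctcTGTttcCAGatcttggga
The 3 acidic codons with this spacing were found once in each of 32 members. XTH11 was the exception: in its stretch, placed by protein alignment to XTH3, 1 of the 3 codons encodes an acidic residue. XTH11 was also the member with the highest log2 ratio of GmPSKγ1 over control among those measured, as given below. The counting interval of its ratio overlapped that of XTH24, and a link between this sequence and the ratio was not tested.

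Members that resemble each other can share reads, so the coding sequences were compared in all 528 pairs. Identity over the aligned length had a median of 52.8% and ran from 41.4% to 89.4%. With gaps counted, the most alike pair was XTH12 and XTH13, neighbours on chromosome 5, at 89.4%, followed by XTH18 and XTH19, neighbours on chromosome 4, at 87.4%. Over ungapped positions it was XTH17 and XTH18 at 92.2%, ahead of XTH12 and XTH13 at 89.7% and XTH18 and XTH19 at 89.0%. XTH15 and XTH16 shared 80.5%, XTH22 and XTH23 79.2%, XTH27 and XTH28 77.4%, and XTH4 and XTH5 71.5%. Of windows of 50 bases in the longest-coding transcript of each member, none occurred in another member for 30 of the 33 genes. The exceptions were XTH17, XTH18 and XTH19, with 0.17%, 1.57% and 1.63% of windows shared. The read length is not given in the sources used here, and windows were compared within the family only.

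**Figure D1:**
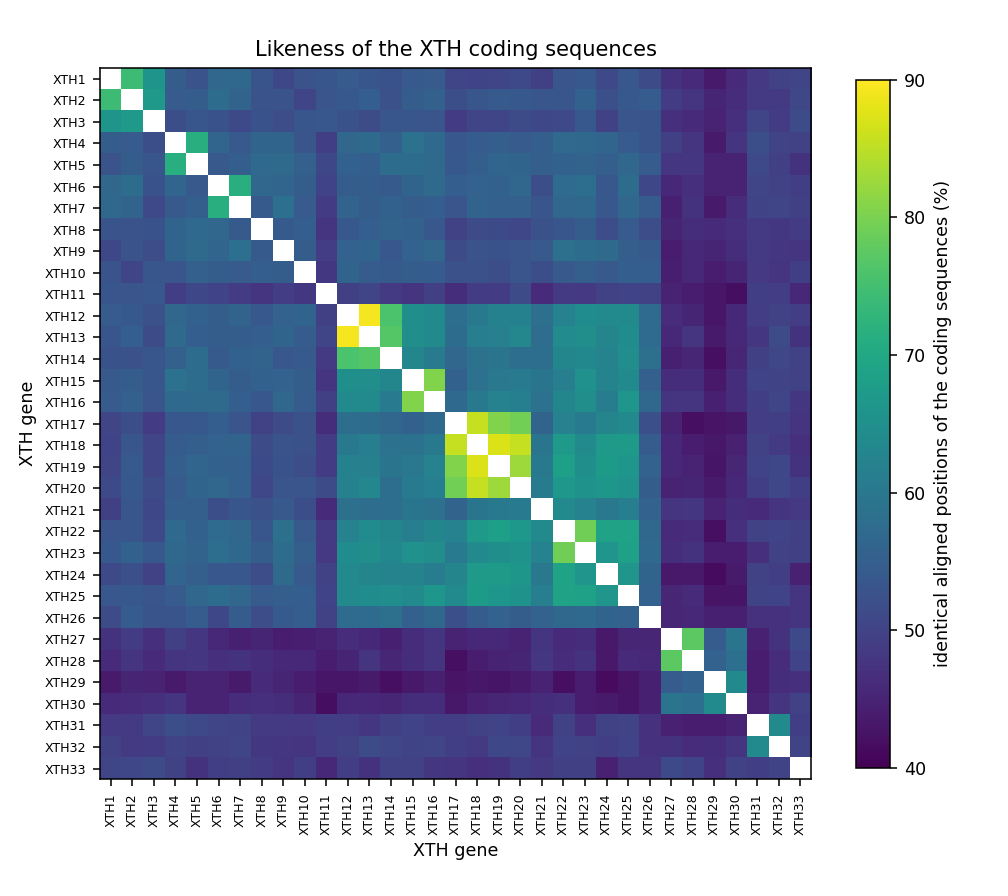
Each cell gives the percentage of identical aligned positions, gaps counted, between the coding sequences of 2 XTH genes, listed from XTH1 to XTH33 on both axes (colour scale 40% to 90%). The brightest cells are XTH12 with XTH13 (89.4%) and XTH18 with XTH19 (87.4%).

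The longest identical coding run of XTH18 and XTH19 was 68 bases, and it is shown because reads that fall wholly within it cannot be assigned to one of these genes. It lies at chr4:14826483-14826550 in XTH18 and at chr4:14829475-14829542 in XTH19, both on the minus strand (TAIR10.1).
XTH18 and XTH19: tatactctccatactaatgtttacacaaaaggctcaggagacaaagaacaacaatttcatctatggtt
Values of XTH18 and XTH19 are therefore uncertain between the pair. No XTH model overlapped another listed model.

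Levels are given in FPKM, which are per length of gene model and allow genes to be set side by side. Low FPKM values fell on steps of 1 read, so that the libraries corresponded to about 16390000 reads for GmPSKγ1 and 15310000 reads for the control, and reads per gene could be estimated. Intervals below are 95% intervals that cover counting error only, exact Poisson for a level and exact Clopper-Pearson for a ratio. Of 33602 models, 17816 had a mean FPKM of at least 1 over both libraries, and these serve as the background. The seed label was borne out by seed markers. Storage protein, oleosin and maturation genes (9 of 9 above the minimum) summed to 83640 FPKM in GmPSKγ1 seeds and 103400 FPKM in control seeds. Of these 9 genes 7 were lower in GmPSKγ1, against 42.1% of all measured genes, and their part in the XTH ratios was not tested. By contrast, 3 of 3 root epidermis markers (EXPA7, COBL9 and PRP3) were listed at 0 in both libraries.

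A small set of members held most of the family's FPKM, and group II supplied most of it. Summed over the 33 genes, XTH transcripts reached 478.9 FPKM in GmPSKγ1 seeds and 530.2 FPKM in control seeds, which was 0.0696% and 0.0767% of all FPKM. A mean of at least 1 FPKM was reached by 17 members, 6 were above 0 but below that minimum, and 10 were listed at 0 in both libraries. Of all 33602 models, 17816 reached the minimum, 5280 were above 0 but below it, and 10506 were listed at 0 in both. These shares are similar, so the counts do not set the family apart. The 5 most abundant members held 77.3% of the family's FPKM in GmPSKγ1 and 73.8% in the control. Group II summed to 307 FPKM in GmPSKγ1 against 336.5 FPKM in the control, group III to 117 against 130 FPKM and group I to 55.0 against 63.7 FPKM (GmPSKγ1 first in each pair).

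XTH22 (AT5G57560, also TCH4; chromosome 5, 23307130 to 23308282), first known as a touch-induced gene, was the most abundant member in both libraries. It had 130.5 FPKM in GmPSKγ1 (counting interval 125.2 to 136) and 136.3 FPKM in the control (130.7 to 142). It alone held 27.3% of the family's FPKM in GmPSKγ1 and 25.7% in the control. XTH24 (AT4G30270, also MERI5; chromosome 4, 14819192 to 14820592), named for its expression in meristems, was second with 104.7 FPKM in GmPSKγ1 seeds and 88.0 FPKM in control seeds. The levels of XTH22 and XTH24 differed beyond their counting intervals within each library.

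The order of the next members depended on the library. In GmPSKγ1 it was XTH27, XTH28 and XTH16 with 50.2, 43.1 and 41.8 FPKM, where XTH28 and XTH16 overlapped in their intervals (40.4 to 45.9 and 38.8 to 44.9). In the control XTH16 ranked next with 70.8 FPKM, followed by XTH27 with 54.7 and XTH28 with 41.3 FPKM, and these 3 intervals did not overlap. XTH9, XTH23 and XTH30 then followed in both libraries. The intervals of XTH23, XTH30 and XTH11 overlapped in GmPSKγ1 (16.2 to 20.3, 14.3 to 17.7 and 13.7 to 17.3 FPKM), so their order is not resolved there. In the control, XTH23 and XTH30 overlapped too (22.6 to 27.5 and 20.3 to 24.5 FPKM).

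**Figure D2:**
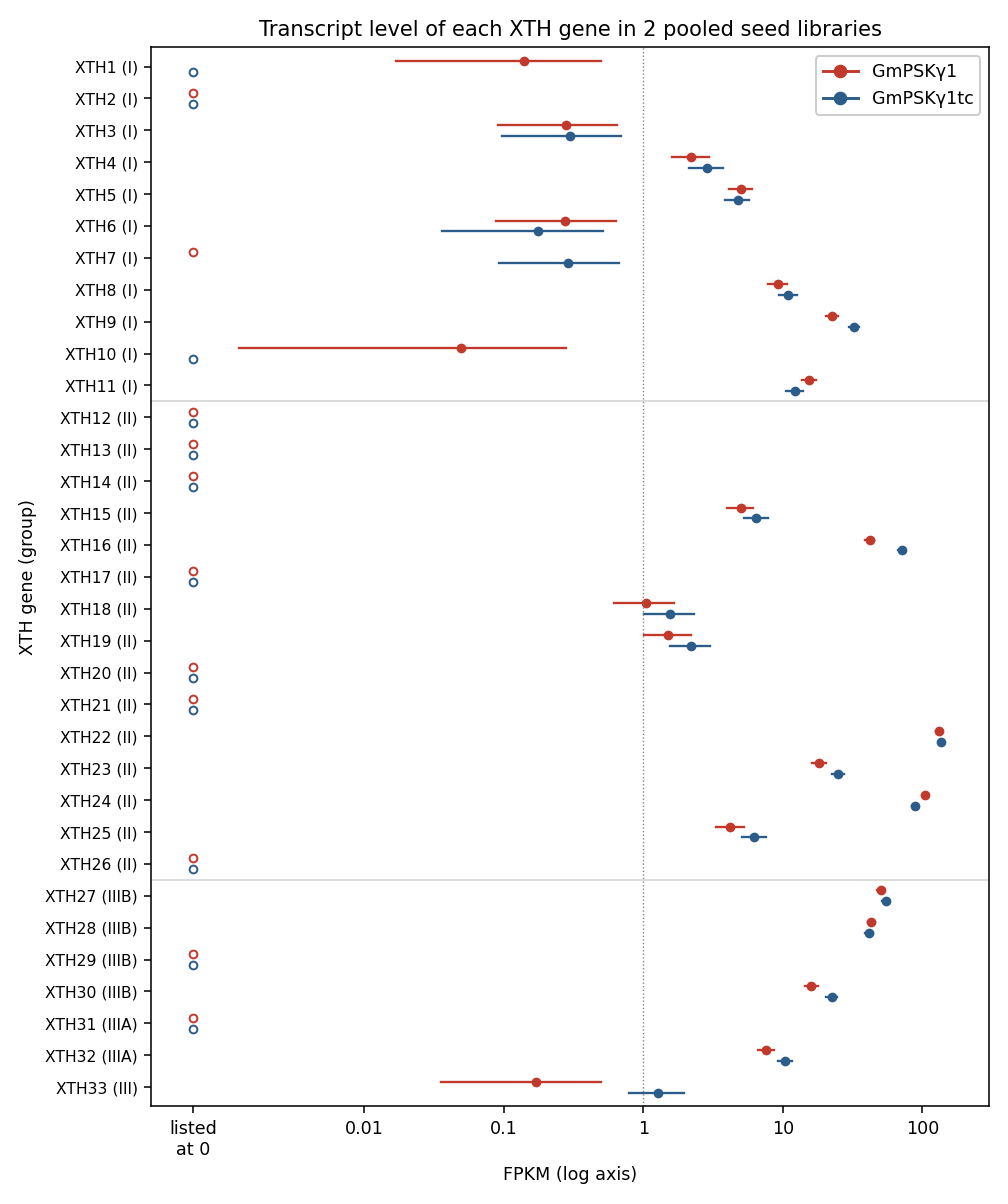
FPKM of the 33 XTH genes (log axis) in GmPSKγ1 and in the GmPSKγ1tc control, with exact Poisson counting intervals as lines; open circles are genes listed at 0, and the dotted line marks 1 FPKM. XTH22 and XTH24 lie highest, and 10 genes are listed at 0 in both libraries.

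To see how the family differed between the genotypes, each member was compared as the log2 ratio of FPKM + 1, GmPSKγ1 over control. This scale understates differences of genes near 1 FPKM. Among the 17 measured members, 13 were lower and 4 higher in GmPSKγ1, and of these 4 XTH5 and XTH28 were lower by a log2 ratio of -0.004 and -0.02 when the libraries were rescaled without the 50 most abundant genes. Over all 17816 measured genes, 42.1% were lower and 57.9% higher. The median log2 ratio was -0.31 for the members, with quartiles of -0.44 and -0.06, and 0.05 for all genes, with quartiles of -0.11 and 0.21. A ratio of FPKM + 1 of 0.8 or less was found for 7 of 17 members (41.2%), against 8.19% of all genes, and 0 members were higher by the same factor, against 13.9% of all genes. At 1.5-fold 1 member was lower, against 2.68% of all genes, and none was higher, against 3.13%. None was 2-fold lower or 2-fold higher, against 0.819% and 0.41% of all genes. The counting interval of the ratio lay below 1 for 7 members (XTH9, XTH16, XTH23, XTH25, XTH27, XTH30 and XTH32), against 14.5% of all genes, and above 1 for XTH11 and XTH24, against 24% of all genes. For the other 8 the interval included 1, which does not show that they were equal. In bulk seed RNA, fewer cells that express a gene and less RNA per cell cannot be told apart.

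The family sum held differences of opposite sign. The differences of the 16 members with a lower value in GmPSKγ1 summed to -73.5 FPKM, of which XTH16 made up 39.5%. Those of the 7 members with a higher value summed to 22.3 FPKM, of which XTH24 made up 74.9%. The ratio of the family's estimated reads per depth was 0.908 (counting interval 0.883 to 0.935).

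**Figure D3:**
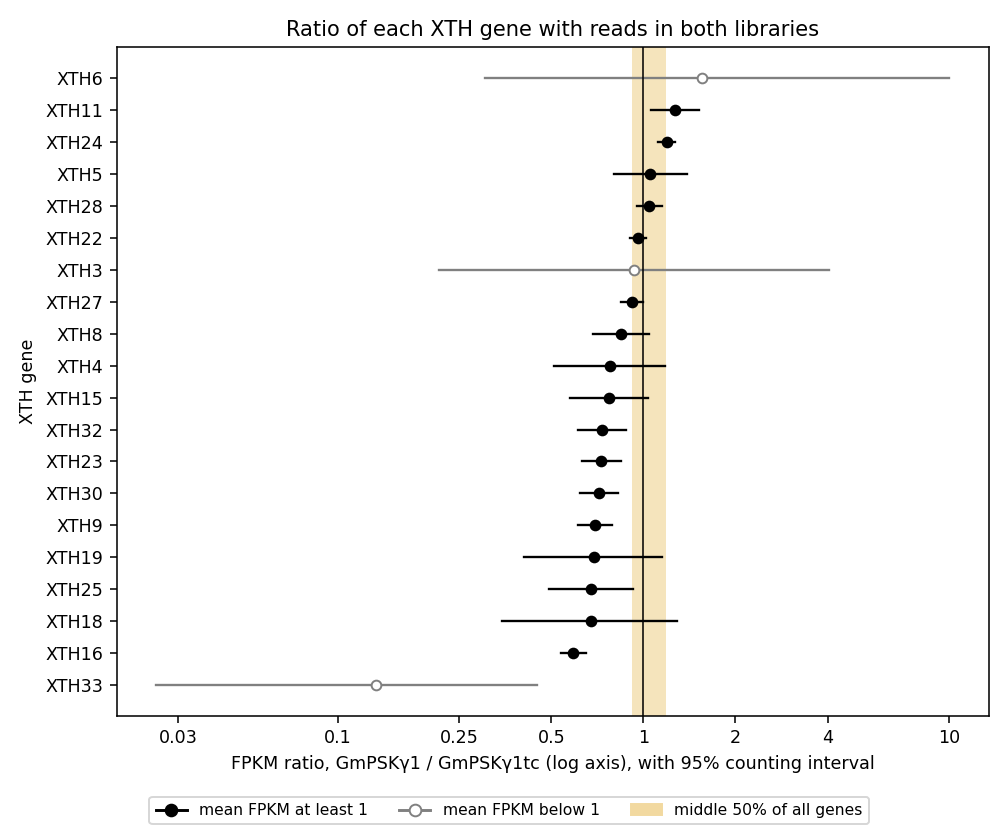
FPKM ratio of GmPSKγ1 over GmPSKγ1tc (log axis, no pseudocount) for the 20 XTH genes with reads in both libraries, with exact 95% counting intervals; grey open circles are genes with a mean below 1 FPKM, and the band holds the middle 50% of all measured genes (0.916 to 1.18). XTH16 (0.590) is lowest among genes averaging 1 FPKM or more, and XTH33 (0.133) rests on few reads.

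In group I, 5 of 11 members were measured, with a median log2 ratio of -0.22. Of these 5, 3 were lower and 2 higher in GmPSKγ1 (42.1% and 57.9% of all genes). XTH9 (AT4G03210; chromosome 4, 1415949 to 1417352), which is known from shade responses and wood formation, had 22.4 FPKM in GmPSKγ1 seeds and 32.3 FPKM in control seeds. Its ratio of 0.694 (counting interval 0.609 to 0.791) was the lowest of the 5 measured members, and the counting intervals of the levels did not overlap. XTH11 (AT3G48580; chromosome 3, 18007165 to 18008488) was higher in GmPSKγ1, with 15.4 FPKM against 12.2 FPKM in the control, and its ratio of 1.27 had an interval of 1.06 to 1.52. This is the member whose coding sequence lacks acidic codons at 2 of the 3 catalytic positions shown above. XTH8 had 9.22 FPKM in GmPSKγ1 seeds and 10.9 FPKM in control seeds, a ratio of 0.845 (0.683 to 1.05).

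The similar pair XTH4 and XTH5 (71.5% coding identity), both first described as endoxyloglucan transferases, stood on opposite sides of 1. XTH4 had 2.21 FPKM in GmPSKγ1 seeds and 2.85 FPKM in control seeds, on 44 and 53 reads, and its interval of 0.508 to 1.18 included 1. XTH5 had 4.997 FPKM in GmPSKγ1 seeds and 4.74 FPKM in control seeds, on 114 and 101 reads, with an interval of 0.800 to 1.39. At this depth no difference was detectable for either gene.

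Group II held 15 members, of which 8 were measured, with a median log2 ratio of -0.34. Of these 8, 7 were lower in GmPSKγ1, against 42.1% of all genes. The counting interval of the ratio lay below 1 for 3 of the 8 and above 1 for 1, and included 1 for 4. XTH16 (AT3G23730; chromosome 3, 8550110 to 8551335), known from shade-induced petiole growth, had 41.8 FPKM in GmPSKγ1 (736 reads) and 70.8 FPKM in the control (1165 reads). It was the 1 member past 1.5-fold, with a log2 ratio of -0.75, and the control was 1.69-fold higher without the pseudocount (counting interval 1.54 to 1.86). XTH15 (AT4G14130), its closest relative in the family, had 4.98 FPKM in GmPSKγ1 seeds and 6.44 FPKM in control seeds. The ratio of XTH15 was 0.774, and its interval of 0.576 to 1.04 included 1. Both genes of the pair were lower in GmPSKγ1, with XTH16 far the more abundant in each library.

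The cluster on chromosome 5 holds XTH12, XTH13, XTH25 and XTH22 in that order. XTH12 and XTH13, known from roots, were listed at 0 in both libraries, and 1 other listed model lies between them. XTH25 (AT5G57550; 708 bp from XTH22) had 4.21 FPKM in GmPSKγ1 seeds and 6.23 FPKM in control seeds, a ratio of 0.675 (0.493 to 0.921). XTH22, the most abundant member, had a ratio of 0.958, and its interval of 0.903 to 1.02 included 1. Neighbouring genes of this cluster therefore ranged from no detected reads to the highest level of the family.

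The cluster of XTH23 and XTH14 on chromosome 4 was divided in the same way. XTH23 (AT4G25810, also XTR6; chromosome 4, 13128643 to 13129884), known from salt responses, had 18.2 FPKM in GmPSKγ1 seeds and 24.95 FPKM in control seeds. Its ratio was 0.728, with an interval of 0.628 to 0.845, and its level intervals did not overlap. XTH14, 412 bp away, was listed at 0 in both libraries.

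A further cluster on chromosome 4 holds XTH24, XTH18 and XTH19. XTH24 was the 1 measured member of group II that was higher in GmPSKγ1, with a log2 ratio of 0.25, and on 2072 reads in GmPSKγ1 and 1627 in the control its ratio of 1.19 had an interval of 1.11 to 1.27. XTH18 had 1.05 FPKM in GmPSKγ1 seeds and 1.56 FPKM in control seeds, on 18 and 25 reads. XTH19, of root expression in seedlings like XTH18, had 1.52 FPKM in GmPSKγ1 seeds and 2.20 FPKM in control seeds, on 28 and 38 reads. Both ratios (0.673 and 0.688) had intervals that included 1 (0.346 to 1.28 and 0.407 to 1.15). The 2 genes share the run of 68 bases printed above, and any read wholly within it cannot be assigned to one of them. Whether such reads occurred, and how they were treated, is not known.

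Of group III, 4 of 7 members were measured, 3 of them lower in GmPSKγ1, against 42.1% of all genes. XTH30 (AT1G32170, also XTR4; chromosome 1, 11575320 to 11577927), known from salt responses, had 15.9 FPKM in GmPSKγ1 seeds and 22.3 FPKM in control seeds. Its ratio was 0.715, with an interval of 0.619 to 0.825. XTH32 (AT2G36870; chromosome 2, 15472645 to 15474681), of the hydrolase group IIIA, had 7.62 FPKM in GmPSKγ1 seeds and 10.4 FPKM in control seeds, a ratio of 0.731 (0.609 to 0.877). XTH31 (AT3G44990), the other gene of group IIIA and a hydrolase known from roots, was listed at 0 in both. XTH32 was thus the 1 group IIIA gene with reads in these seeds.

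XTH27 (AT2G01850, also EXGT-A3; chromosome 2, 385199 to 387344), known from xylem of leaf veins, had 50.2 FPKM in GmPSKγ1 seeds and 54.7 FPKM in control seeds. Its ratio of 0.917 had an interval of 0.844 to 0.996, which ended just below 1 and included 1 when the libraries were rescaled to a common sum. XTH28 (AT1G14720; chromosome 1, 5066636 to 5068645), known from stamen filaments and 77.4% identical to XTH27, had 43.1 FPKM in GmPSKγ1 seeds and 41.3 FPKM in control seeds. For XTH28 the ratio of 1.04 had an interval of 0.951 to 1.15. Both were among the 5 most abundant members. The log2 ratio of FPKM + 1 was -0.12 for XTH27, just below the first quartile of all genes (-0.11), and 0.06 for XTH28, near their median.

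The 6 members above 0 but below the minimum rested on few reads. XTH33 (AT1G10550; chromosome 1, 3479153 to 3480988), which in Arabidopsis carries a membrane anchor, had 0.171 FPKM in GmPSKγ1 on 3 reads and 1.28 FPKM in the control on 21 reads. Its ratio of 0.133 had an interval of 0.0255 to 0.447, so the control exceeded GmPSKγ1 by more than the counting error, at a mean level of 0.728 FPKM just outside the minimum; XTH18, at 1.30 FPKM, was just inside. XTH3, which can also graft cellulose in vitro, had 5 reads in each library. XTH6 had 5 reads in GmPSKγ1 and 3 in the control. XTH1 and XTH10 had 2 and 1 reads in GmPSKγ1 and were listed at 0 in the control, and XTH7 was listed at 0 in GmPSKγ1 with 5 reads in the control. No fold is given for these last 3.

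The 10 members listed at 0 in both libraries were XTH2, XTH12, XTH13, XTH14, XTH17, XTH20, XTH21, XTH26, XTH29 and XTH31. XTH12, XTH13, XTH14, XTH17, XTH20, XTH21, XTH26 and XTH31 are known mainly from roots or root hairs. Root expression did not go with absence in every case. XTH18 and XTH19, also of root expression in seedlings, were measured here at mean levels of 1.30 and 1.86 FPKM. A floor of 3 reads, the one-sided 95% limit for a count of 0, corresponds to 0.144 to 0.214 FPKM in GmPSKγ1 and 0.154 to 0.229 FPKM in the control, depending on gene length. The upper ends of the 2-sided Poisson intervals used for the other levels are higher, 0.177 to 0.263 FPKM in GmPSKγ1 and 0.189 to 0.282 FPKM in the control.

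To place the family among other genes of its substrate, genes of xyloglucan synthesis and trimming were compared in the same way. Of 16 synthesis genes 13 were measured, 8 lower and 5 higher in GmPSKγ1 (42.1% and 57.9% of all genes), with a median log2 ratio of -0.11. CSLC4 encodes the glucan synthase of the xyloglucan backbone. It was the 1 gene of the list past 1.5-fold, against 2.68% of all genes lower and 3.13% higher. CSLC4 had 6.80 FPKM in GmPSKγ1 seeds and 12.5 FPKM in control seeds, a ratio of 0.545 (0.468 to 0.634). CSLC5, of the same family, had 23.1 FPKM in GmPSKγ1 seeds and 23.7 FPKM in control seeds. XXT1, a xylosyltransferase gene, had 13.5 FPKM in GmPSKγ1 seeds and 18.7 FPKM in control seeds, a ratio of 0.720 (0.630 to 0.822). XXT2, which has the same activity and was the most abundant gene of the list, had 69.1 FPKM in GmPSKγ1 seeds and 74.7 FPKM in control seeds. XLT2, a galactosyltransferase gene, was on the other side, with 16.8 FPKM in GmPSKγ1 seeds and 13.2 FPKM in control seeds. Of the 13 intervals, 6 lay below 1 (14.5% of all genes did), 2 lay above 1 (24% of all genes did) and 5 included 1.

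The 5 genes of enzymes that trim xyloglucan side chains and oligosaccharides were all measured. Of them 4 were higher in GmPSKγ1, against 57.9% of all genes, and the median log2 ratio of the 5 was 0.27. BGAL10, a β-galactosidase gene, had 6.36 FPKM in GmPSKγ1 seeds and 4.08 FPKM in control seeds, a ratio of 1.56 (1.28 to 1.91). XYL1, the α-xylosidase gene, had 50.2 FPKM in GmPSKγ1 seeds and 35.3 FPKM in control seeds, a ratio of 1.42 (1.34 to 1.51). AXY8, an α-fucosidase gene, was lower and had the highest level of the list in the control, with 36.4 FPKM in GmPSKγ1 seeds and 51.6 FPKM in control seeds (ratio 0.704, 0.661 to 0.750). At 1.5-fold on the log2 ratio of FPKM + 1, none of the 5 genes was called, against 3.13% of all genes higher and 2.68% lower. BGAL10, past 1.5-fold without the pseudocount, had a log2 ratio of 0.535 with it, so its call depends on the pseudocount.

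**Figure D4:**
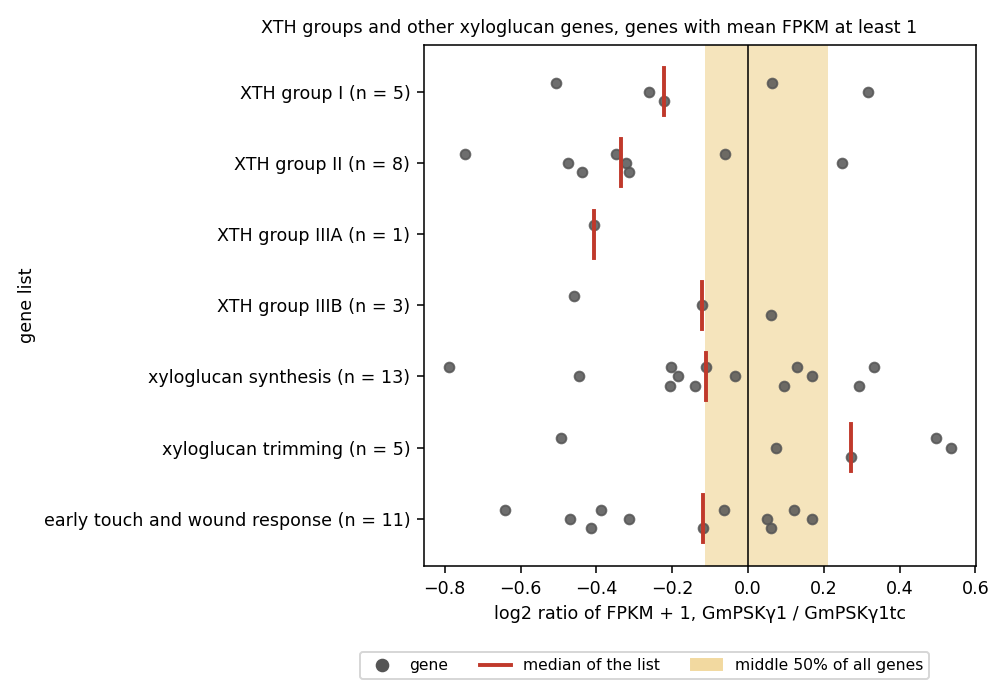
Log2 ratio of FPKM + 1, GmPSKγ1 over GmPSKγ1tc, for XTH groups, genes of xyloglucan synthesis and trimming, and early touch and wound response genes; points are genes averaging 1 FPKM or more, red bars are list medians and the band is the middle 50% of all genes (-0.11 to 0.21). The median of group II XTH genes lies at -0.34 and that of the trimming genes at 0.27.

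XTH22 is itself a touch-response gene, so early touch and wound genes were set beside it. Of 12 such genes 11 were measured, 7 lower and 4 higher in GmPSKγ1 (42.1% and 57.9% of all genes), with a median log2 ratio of -0.12. The 12 genes summed to 162.3 FPKM in GmPSKγ1 seeds and 190.4 FPKM in control seeds. TCH2, a calmodulin-like gene and the most abundant of the list, had 52.6 FPKM in GmPSKγ1 seeds and 69.2 FPKM in control seeds, a ratio of 0.760 (0.685 to 0.844). CML38, also calmodulin-like, had 1.81 FPKM in GmPSKγ1 seeds and 3.39 FPKM in control seeds. WRKY40 had 0.868 against 1.59 FPKM and RRTF1 5.73 against 7.97 FPKM, GmPSKγ1 first, and both models overlap another. The interval of WRKY40 (0.282 to 1.03) included 1. Of the 11 measured genes, WRKY40 among them, 7 had an interval that included 1. The interval lay below 1 for 4 genes, against 14.5% of all genes, and above 1 for none, against 24%. The part of these genes in the XTH ratios was not tested.

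Markers of tissues within and around the seed differed in mixed directions. Over all measured genes, 42.1% were lower and 57.9% higher in GmPSKγ1. Of the 9 storage, oleosin and maturation genes whose sums are given above, 7 were lower in GmPSKγ1, where they made up 12.2% of all FPKM, against 14.97% in the control. Of 6 seed coat genes, all measured, 4 were higher and 2 lower in GmPSKγ1, with a median log2 ratio of 0.05. Their sum was 908.9 FPKM in GmPSKγ1 seeds and 946.3 FPKM in control seeds, most of it TT10, which was lower at 597.3 FPKM in GmPSKγ1 seeds and 682.4 FPKM in control seeds. The ratio was above 1 beyond its interval for MUM2 (1.58, 1.47 to 1.69) and BAN (1.29, 1.21 to 1.37). Endosperm genes (3 of 5 measured) summed to 3652 FPKM in GmPSKγ1 seeds and 4274 FPKM in control seeds, nearly all of it EPR1. PHE1 was listed at 0 in GmPSKγ1 and had 2 reads in the control, below the floor of 3 reads. The 3 silique wall and dehiscence zone genes were higher in GmPSKγ1, and 2 of them, IND and FUL, were below the minimum. The list had a sum of 4.02 FPKM in GmPSKγ1, against 2.02 FPKM in the control; IND had 6 reads in GmPSKγ1 and was listed at 0 in the control, and ALC was the most abundant at 3.35 FPKM in GmPSKγ1 seeds and 1.79 FPKM in control seeds, a ratio of 1.87 (1.11 to 3.23). The part of these markers in the XTH ratios was not tested.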

How the data were processed

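Total RNA of seeds was sequenced in 2 libraries. The authors deposited FPKM per gene model; Bowtie 0.12.2 and the build TAIR10 are named per the submitters' processing notes, while the program that computed FPKM, the annotation release, read length, strandedness and treatment of multiply mapped reads are not given in the sources. Reads of a gene and of its antisense partner can therefore not be separated.

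Genes were compared on log2(FPKM + 1), GmPSKγ1 over GmPSKγ1tc, where the mean FPKM was at least 1. With 1 library per genotype no test was run. Reads were estimated as FPKM × exon kilobases divided by the step of low values (0.0610 and 0.0653 in the GmPSKγ1 and control libraries). Exon lengths came from RefSeq (TAIR10.1), clipped to the deposited model ends. In single-exon models below 200 reads, 99.8% and 99.7% of values came out whole within 0.05, where chance gives 10%. Of 23 members with reads, 20 came out whole in both libraries; reads of XTH9, XTH11 and XTH32 are approximate. Since no molecular identifiers are recorded, reads are not independent molecules. The step estimate and ratios were tested on simulated data with counting error only. The same exon lengths made and read the simulated FPKM, so errors in these lengths could not show there.

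The members and lists were chosen with earlier results of these data known. Every XTH member could be named; of the synthesis, trimming and touch lists, the 3 largest absolute ratios and the most abundant gene, to which CSLC5 was added after its values were seen, as were MUM2, BAN, IND, FUL and PHE1 among the markers. Identity came from global alignment (Biopython 1.88, scipy 1.17.1 for intervals). Pseudocounts, minimums, rescalings and thresholds were varied, with results in the closing section.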

Additional observations from a re-analysis of the deposited data

How the results depend on the processing

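The median log2 ratio of the XTH members stayed negative under every alternative run, between -0.36 (pseudocount of 0.1) and -0.15 (pseudocount of 5). It lay between -0.32 and -0.29 when each member was left out in turn. With 13 of 17 members lower, a common pseudocount, the small rescalings or leaving out 1 member could not have made the median positive. The 13 lower members kept their sign in all 7 settings of pseudocount, minimum and scaling in which they were measured. These settings could not have changed it. A pseudocount common to both libraries, or a minimum, leaves the sign of a ratio as it is. The rescalings multiplied GmPSKγ1 over control by 0.964, 0.945 and 1.004. XTH22, the lower member nearest 1, had a ratio of 0.958, which none of these factors brings to 1. XTH5 and XTH28 changed sign, to -0.004 and -0.02, when the libraries were rescaled without the 50 most abundant genes, which shifts the median of all genes to -0.03. Members at least 1.5-fold lower numbered 1, against 2 with no minimum (XTH33 added), 2 when rescaled without the 50 most abundant genes (XTH9 added), 7 at a ratio of 0.8 or less and 0 at 2-fold. Members with a counting interval below 1 numbered 7, and from 6 (rescaled to a common sum, without XTH27) to 10 (without the 50 most abundant genes) otherwise.

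Over all genes, 478 were at least 1.5-fold lower and 557 higher in GmPSKγ1. A pseudocount of 5 left 206 lower and 146 higher, a minimum mean of 5 FPKM 281 lower and 322 higher. At a ratio of 0.8 (or its inverse) 1460 were lower and 2476 higher, and at 2-fold 146 were lower and 73 higher; with a pseudocount of 0.1, 697 were lower and 945 higher. Rescaled without the 50 most abundant genes, 614 were lower and 362 higher, and rescaled by the median ratio 563 and 430. No paired analysis was possible because each genotype is 1 pooled library. Depth limits members below about 100 reads per library, whose intervals mostly include 1.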
